A study of Mus musculus with 3 samples.

Results

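Carrier genes of the liver were followed in HNF4alpha mice given a Cre virus or a control virus. They were chosen by name as the rows whose only platform gene symbol was Slc10a1, Slco1a1, Slco1a4, Slco1b2, Slco2b1, Slco2a1, Slc22a7, Slc51a or Slc51b, so the list holds 9 of the 18193 genes on the array and 20 probe sets. The group was labelled as organic anion and cation carriers, but the members are known as carriers of bile acids, organic anions and prostaglandins, and they are called organic anion and bile acid carriers here.

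The Cre group was 1 mouse that received MUP-iCre-AAV8, an adeno-associated virus carrying the iCre recombinase, and the control group was 2 mouse livers with MUP-EGFP-AAV8, which carries a fluorescent protein in its place. MUP is not spelled out in the labels. All mice were 3 months old, of mixed strain, and gave their livers 1 week after 1 intraperitoneal dose of 400 microL of virus. The labels give the Cre liver the genotype HNF4alpha knockout and the control livers the genotype wild type, while the series design speaks of floxed mice for both viruses, so a difference in genotype before injection cannot be told apart from the virus. One array was hybridised per mouse with biotin-labelled total RNA.

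The cells of the liver take up bile acids, bilirubin, hormones and drugs from the blood across the sinusoidal membrane. Slc10a1 encodes Ntcp, which imports bile acids together with sodium, and the Slco genes encode organic anion transporting polypeptides, which import bile acids, steroid conjugates, thyroid hormones and many drugs without sodium. Slc22a7 encodes Oat2, an organic anion carrier, and Slc51a and Slc51b encode the partner subunits of an exporter that lets bile acids back out into the blood. Hnf4a encodes HNF4alpha, a nuclear receptor needed for the expression of many genes of mature hepatocytes.

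In the Cre liver 4 of the 9 carriers fell (Slco2b1, Slc22a7, Slco1a1 and Slc10a1), 1 rose (Slco1a4) and 4 did not pass the test (Slco1b2, Slco2a1, Slc51a and Slc51b). On their brightest probe sets the 4 that fell were between 7.03-fold and 30.5-fold lower, and Slco1a4 was 2.46-fold higher. Differences are Cre minus the mean of the controls on the log2 scale with the standard error (SE) of limma's moderated fit, and the words rose and fell are kept for a Benjamini-Hochberg adjusted p under 0.05 over 12735 fitted genes. Over all fitted genes 11.9% passed in either direction, with 5.21% lower and 6.71% higher. The median difference of the carriers was -0.63, beside 0.09 for all fitted genes. The Cre liver lay below both controls in 7 carriers, above both in 1 and between them in 1, where 33.6% of all fitted genes lay below both and 49.7% above both. By size alone 4 carriers were at least 2-fold below both controls and 1 at least 2-fold above both, against 3.72% and 3.67% of all fitted genes. The carriers and the gene lists below were chosen with earlier results of these data known, so counts beside these shares are a description.

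**Figure D1:**
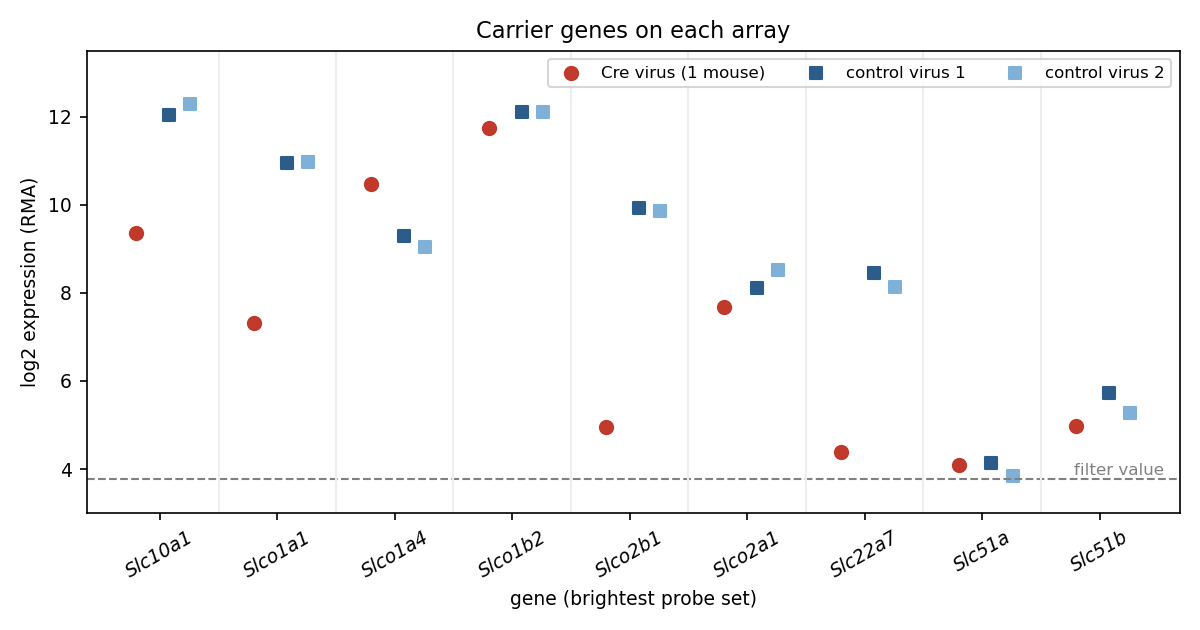
Log2 expression (vertical axis) of the brightest probe set of each of the 9 carrier genes (horizontal axis) in the Cre liver (circle) and the 2 control livers (squares). The dashed line is the filter value of 3.77 for dim genes. Slc10a1, Slco1a1, Slco2b1 and Slc22a7 lie far below both controls in the Cre liver, Slco1a4 lies above both, and levels of different genes are not comparable.

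Every value of the Cre group rests on 1 mouse, and the fit assumed that this mouse varies as the controls do. Median log2 expression was 4.155 on the Cre array and 4.183 and 4.152 on the control arrays. Over all probe sets Pearson's r was 0.97 and 0.972 for the Cre array with control 1 and control 2, and 0.993 for the controls with each other, which describes the arrays and is no test. On all 4 probe sets of Hnf4a the Cre liver lay below both controls, with 6.52 against 7.69 and 7.72 on 1421983_s_at, the widest difference, and 11.38 against 11.91 and 11.96 on the brightest (-0.55 ± 0.10 SE, adjusted p = 0.0401 over genes). Tested over all probe sets, 1421983_s_at passed (adjusted p = 0.0282), and the brightest (0.0525), 1450447_at (0.161) and 1427000_at (0.18) did not. Whether these probe sets lie in the deleted part was not analysed. The 3-prime over 5-prime log2 signal of the array's control probe sets was higher on the Cre array for Gapdh (1.04, against 0.455 and 0.822) and for Actb (2.393, against 1.706 and 2.062), and the part of RNA quality in the results was not tested. In whole liver RNA fewer cells of a type and less RNA per cell cannot be told apart.

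Slc10a1, the sodium-dependent importer of bile acids, was at 9.36 in the Cre liver and at 12.04 and 12.30 in the control livers. The Cre liver was low and did not overlap the controls. The difference was -2.81 ± 0.15 SE (adjusted p = 0.00285), which leaves 14.2% of the control signal on the linear scale. A further probe set, 1450261_a_at, gave 8.12 against 10.93 and 11.28, a difference of -2.99 ± 0.18 SE (adjusted p = 0.00766 over 21748 probe sets). Both probe sets of the gene therefore passed with falls of 7.03-fold and 7.93-fold.

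Slco2b1, a sodium-independent importer of steroid sulfates and other anions, fell. On its brightest probe set it was at 4.96 in the Cre liver and at 9.92 and 9.87 in the control livers, so the groups lay far apart. The difference was -4.93 ± 0.13 SE (adjusted p = 0.00107). The size depended on the probe set, and so did its order against Slco1a1: with the mean of each gene's sets the differences were -2.64 for Slco2b1 and -3.32 for Slco1a1, and without suffixed sets -2.81 and -3.65. The brightest, 1433933_s_at, carries the suffix of sets that can read more than 1 transcript, and 1454777_at gave 5.91 in the Cre liver against 8.68 and 8.76 in the controls, a 7.01-fold fall (-2.81 ± 0.14 SE, adjusted p = 0.00507). The dim set 1458171_at stood at 4.32 in the Cre liver, between control values of 4.87 and 4.12, and did not pass (adjusted p = 0.784).

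Slco1a1 encodes Oatp1a1, an importer of bile acids and steroid conjugates that is known to be more abundant in male than in female mouse liver. It was at 7.32 in the Cre liver, against 10.96 and 10.97 in the control livers. The controls differed by 0.0012, and the Cre liver lay far below them. The difference was -3.65 ± 0.11 SE (adjusted p = 0.0011), with 7.98% of the control signal left. Probe set 1449844_at gave 6.31 against 9.37 and 9.24, a difference of -2.99 ± 0.14 SE (adjusted p = 0.00451).

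Slco1a4 encodes Oatp1a4, an importer of bile acids and, in rodents, of the heart drug digoxin, and it was the only carrier of the 9 called higher. It was at 10.47 in the Cre liver and at 9.30 and 9.05 in the control livers. The Cre liver was higher than both, by 1.18 and 1.42 on the log2 scale. The difference from their mean was 1.30 ± 0.15 SE (adjusted p = 0.0184), and 319 of 12735 genes were at or above that difference. The gene has 1 probe set, so no further set bears on it.

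Slco1b2 encodes Oatp1b2, the mouse relative of the human carriers that take up bilirubin and statins. On its brightest probe set it was at 11.74 in the Cre liver and at 12.11 and 12.10 in the control livers. The Cre liver was below both, but the difference of -0.36 ± 0.09 SE did not pass (adjusted p = 0.0834). The other probe sets above the filter gave wider differences. Set 1452494_s_at was at 11.13 against 11.79 and 11.75 (-0.64 ± 0.10 SE, adjusted p = 0.0427), and 1427826_a_at at 4.62 against 6.27 and 6.0 (-1.51 ± 0.20 SE, adjusted p = 0.0328). The Cre liver was thus 1.28-fold, 1.56-fold and 2.85-fold lower by set for the same gene, with the last 2 of these 3 past the threshold. Both remaining sets lay below the filter value and were not tested. Set 1452569_at was at 3.24 against 3.23 and 3.3 (-0.03), between the controls, and 1427825_at at 2.88 against 3.32 and 3.47 (-0.52).

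Slco1b2, Slco1a4 and Slco1a1 are neighbours on chromosome 6. In the order of the RefSeq annotation Slco1c1 precedes Slco1b2, then come Gm5724, Slco1a4, Slco1a1, Gm6614, Slco1a6 and Slco1a5. Slco1a4 rose and its neighbour Slco1a1 fell. Slco1c1, which carries thyroid hormone in the brain, stood at 2.72 in the Cre liver and at 2.93 and 2.52 in the control livers, below the filter. Slco1a6 (2.38, against 2.58 and 2.38) and Slco1a5 (2.72, against 2.89 and 2.69) were below it too. Gm5724 and Gm6614 had no probe set of their own and were not analysed here.

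Any link between promoter letters and the differences of these neighbours was not tested. The promoter windows of Slco1a1, which fell, Slco1a4, which rose, and Slco1b2, which did not pass on its brightest set, are shown. Each runs from 250 bases before to 50 bases after the RefSeq start, in build GRCm38.p6, 5′ to 3′ on the strand of the gene. Capitals mark AGGTCA on either strand, the core recognised by many nuclear receptors, and in Slco1b2 also GTTAATNAT, the first part of the motif of HNF1. The windows are Slco1a1 at chr6:141946913-141947212 (minus strand), Slco1a4 at chr6:141856171-141856470 (minus strand) and Slco1b2 at chr6:141629268-141629567 (plus strand).
Slco1a1: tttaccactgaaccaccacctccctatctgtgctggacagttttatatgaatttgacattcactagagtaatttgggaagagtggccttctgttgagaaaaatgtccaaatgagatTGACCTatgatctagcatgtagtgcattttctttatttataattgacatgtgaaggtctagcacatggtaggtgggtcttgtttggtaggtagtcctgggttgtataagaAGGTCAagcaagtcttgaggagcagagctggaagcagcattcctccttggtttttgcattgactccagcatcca
Slco1a4: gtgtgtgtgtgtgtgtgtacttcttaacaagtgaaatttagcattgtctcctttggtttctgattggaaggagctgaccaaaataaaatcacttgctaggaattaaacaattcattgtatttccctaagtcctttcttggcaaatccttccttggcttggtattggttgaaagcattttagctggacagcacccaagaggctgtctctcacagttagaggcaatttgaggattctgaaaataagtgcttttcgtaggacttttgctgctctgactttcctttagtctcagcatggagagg
Slco1b2: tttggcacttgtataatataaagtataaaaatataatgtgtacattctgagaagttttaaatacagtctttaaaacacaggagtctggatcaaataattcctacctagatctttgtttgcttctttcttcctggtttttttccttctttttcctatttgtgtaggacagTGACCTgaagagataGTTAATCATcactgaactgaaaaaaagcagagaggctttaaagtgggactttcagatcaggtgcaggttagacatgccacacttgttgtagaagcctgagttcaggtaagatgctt

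RefSeq windows of 8 of the 9 carriers, all but Slc22a7, were searched, 11 windows in all. The HNF4-type motifs CAAAGTCCA and CAAAGGTCA, searched on both strands, matched in 0 of the 11 windows, beside 0.475% and 0.478% of 32851 mouse windows of the same length. The HNF1-type motif TTAATNATT, which overlaps GTTAATNAT in part, matched in 0 of 11, beside 1.47% of all windows. GTTAATNAT and AGGTCA were added after those searches. GTTAATNAT matched in 1 of the 11 windows, that of Slco1b2 from position -66, beside 0.801% of all windows. AGGTCA matched in 5 of the 11 windows, each of a different carrier, beside 16.3% of all windows. Its matches were at -24 and -134 in Slco1a1, -81 in Slco1b2 and -87 in Slc10a1, with the others in Slc51a and Slc51b. Positions count from the annotated start and give the first base of the match. These matches describe the letters of the windows and are no test of binding.

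Slco2a1 encodes the prostaglandin transporter, which clears prostaglandins from the circulation. It was at 7.69 in the Cre liver and at 8.10 and 8.52 in the control livers. The Cre liver was below both, but the controls lay 0.42 apart and the difference of -0.63 ± 0.22 SE did not pass (adjusted p = 0.148). All 4 of its probe sets were below both controls, with differences from -1.0 to -0.48, and none passed over all probe sets. The nearest to the threshold was 1444242_at, at 4.11 against 5.15 and 5.07 (-1.0 ± 0.17 SE, adjusted p = 0.0533).

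Slc22a7, the organic anion carrier Oat2, was at 4.38 in the Cre liver and at 8.46 and 8.13 in the control livers. The Cre value was far below both controls. The difference was -3.91 ± 0.20 SE (adjusted p = 0.00269). Its 1 probe set has the suffix _a_at, given to sets that read several transcripts of 1 gene.

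Neither exporter subunit passed. Slc51a was at 4.10 in the Cre liver, between the control values of 4.14 and 3.85, and did not pass (0.10 ± 0.22 SE, adjusted p = 0.772). Slc51b was at 4.98 in the Cre liver and at 5.73 and 5.28 in the control livers. It lay below both, but the controls differed by 0.44 and the difference of -0.53 ± 0.25 SE did not pass (adjusted p = 0.233). Neither value shows that the exporter genes were unaffected.

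Over the probe sets of all carriers, 18 of 20 were above the filter, of which 9 passed as lower, 1 as higher and 8 did not pass. Over the 21748 probe sets fitted, 3.71% passed as lower and 3.69% as higher. Of the 20, 16 were below both controls, 1 above both and 3 between them. Over all fitted genes 33.6% lay below both and 49.7% above both, and these shares were not counted over all probe sets. Probe sets of 1 gene share its RNA and are not replicates. Of the 5 carriers with several sets, the sizes of the fitted sets lay closest in Slc10a1 (-2.81 and -2.99) and furthest apart in Slco2b1 (-4.93 to -0.18).

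**Figure D2:**
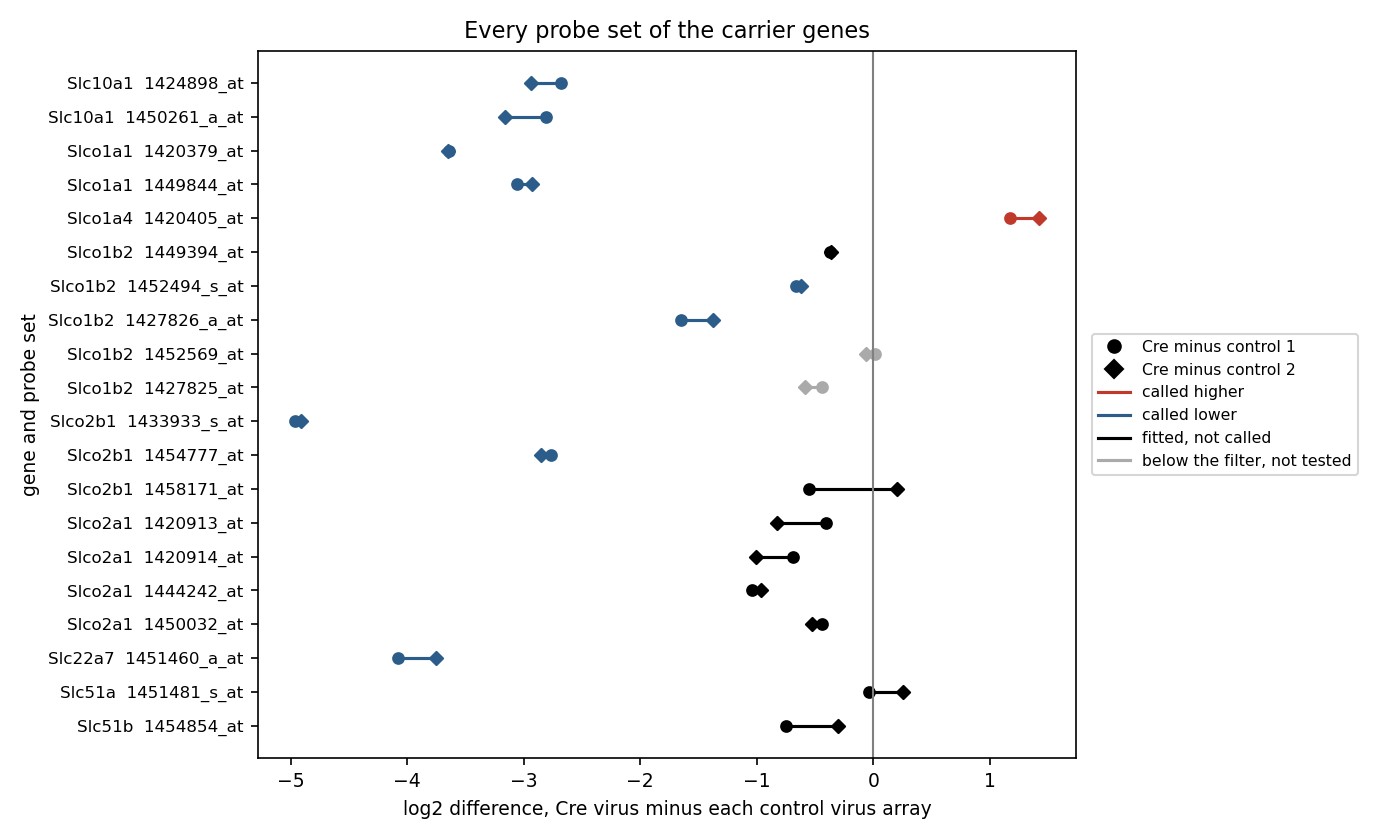
Log2 difference (horizontal axis) between the Cre array and control 1 (circle) or control 2 (diamond) for each of the 20 probe sets of the carrier genes (vertical axis), with a line joining the pair. Colours give the limma call over all probe sets. For Slco2b1 the brightest set lies near -4.93 and the others at -2.81 and -0.18, while the sets of Slc10a1 lie at -2.81 and -2.99.

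**Figure D3:**
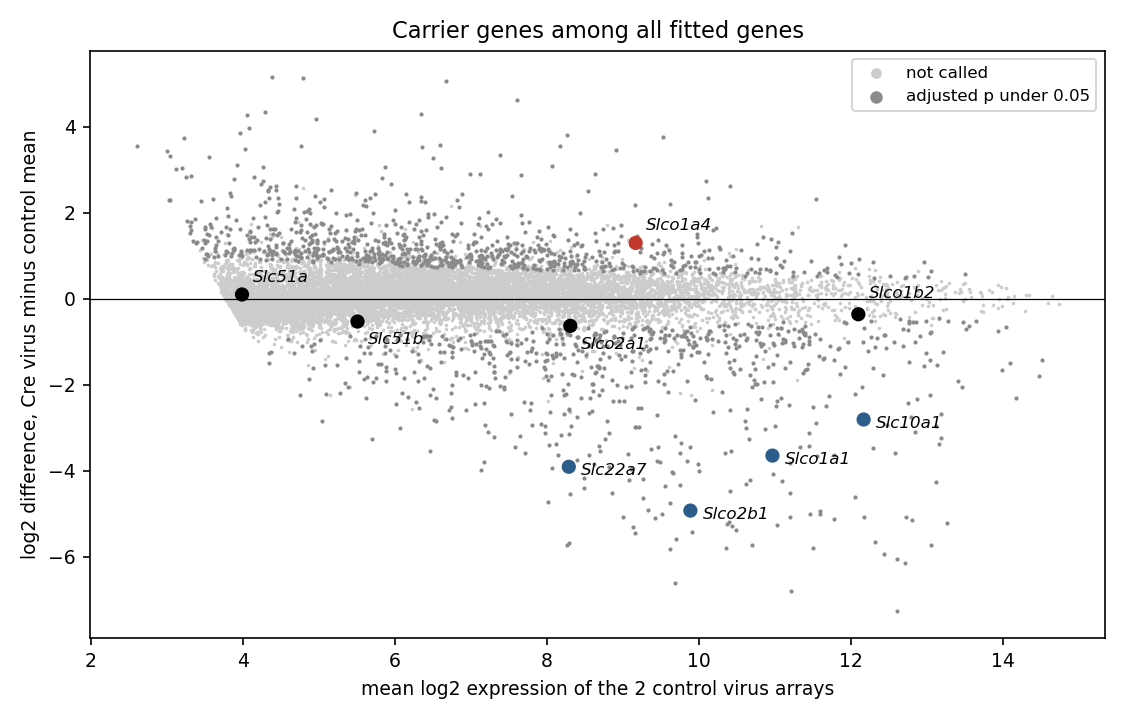
Log2 difference of Cre minus control mean (vertical axis) against the control mean (horizontal axis, log2 expression) for 12735 fitted genes, with dark grey for an adjusted p under 0.05. The 9 carriers are named, in blue where called lower, red where called higher and black where not called. Slco2b1, Slc22a7, Slco1a1 and Slc10a1 lie in the lower part of the plot at control means from 8.29 to 12.17.

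Genes with the most similar differences were found by the smallest distance over the differences from control 1 and control 2, for the 5 carriers that passed. With only 3 arrays many genes share such a pattern, so closeness is a description. Slc10a1 was closest to S100a10 (distance 0.035) and the clone 2210039B01Rik (0.065). Slco1a1 was closest to Stard5 (0.065) and Rdh16f2 (0.078), and Slco1a4 to Camk2n2 (0.015) and Sulf2 (0.030). Slco2b1 was closest to Aspdh (0.10) and Cyp2c23 (0.12), and Slc22a7 to Hsd3b3 (0.089) and Cyp2d13 (0.13).

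Other organic anion transporting polypeptides gave little signal in liver. Of 10 on the array, 8 lay below the filter and 2 were fitted, Slco3a1 (-0.25) and Slco4a1 (0.18), neither of which passed. Other carriers of the SLC22, SLC10 and SLC47 families went both ways, with 4 lower and 2 higher of 16 fitted. Over all fitted genes 5.21% were called lower and 6.71% higher. Of the 25 on the array, 9 were below the filter. Slc47a1, which encodes Mate1, an exporter of organic cations into bile, was at 5.15 in the Cre liver, against 10.33 and 10.55 in the control livers (-5.29 ± 0.15 SE, adjusted p = 0.0011). Slc22a30, a member of the organic anion carrier family, was at 5.11 against 10.27 and 10.70 (-5.38 ± 0.22 SE, adjusted p = 0.00171). Slc22a18 (-1.68) and Slc10a2 (-1.86), the bile acid importer of ileum and bile ducts, fell, with Slc10a2 at 3.01 in the Cre liver, below the filter value, against 4.71 and 5.03 in the control livers. Slc22a15 (2.51) and Slc10a7 (0.90) rose, and Slc22a5, the carnitine importer, was at 1.34 without passing (adjusted p = 0.0629). The list median was -0.27.

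Of 14 ATP-driven exporters 13 were fitted, of which 4 rose and 1 fell, beside 6.71% higher and 5.21% lower of all fitted genes. Abcc3, which pumps conjugates back into blood, was at 11.04 in the Cre liver, against 9.68 and 9.88 in the control livers (1.26 ± 0.14 SE, adjusted p = 0.0155). Abcb1a (1.76) and Abcb1b (1.13), the drug efflux pumps, and Abcc2 (0.61), the conjugate pump of the bile canaliculus, rose. Abcc6, which releases ATP from hepatocytes, fell (-4.52 ± 0.14 SE, adjusted p = 0.0011), and Abcb11, the bile salt export pump, was at 0.30 without passing (adjusted p = 0.205). The list median was 0.30.

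Of 9 fitted genes for membrane partners, 3 fell and none rose, where 5.21% of all fitted genes were called lower and 6.71% higher. The list median was -0.07. Pdzk1, a scaffold that holds Oatp1a1 at the sinusoidal membrane in mice, was at 4.51 in the Cre liver, against 8.02 and 8.29 in the control livers (-3.64 ± 0.18 SE, adjusted p = 0.00267). Its relative Slc9a3r1 (-1.51) and Rdx (-0.61), which ties membrane proteins to the cytoskeleton, fell as well, and Bsg was at 0.64 without passing (adjusted p = 0.0988). Atp1b1, a subunit of the sodium pump that keeps the gradient used by Ntcp, was at -0.07 and did not pass.

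Of 20 fitted receptors and factors tied to carrier genes, 5 fell and 2 rose, beside 5.21% lower and 6.71% higher of all fitted genes. The list median was -0.29. Nr1i3, the xenobiotic receptor CAR, was at 5.01 in the Cre liver, against 8.20 and 8.17 in the control livers (-3.18 ± 0.14 SE, adjusted p = 0.00206). Ghr, the growth hormone receptor (-1.48), Cebpa (-1.26) and Cebpb (-1.04) fell, as did Hnf4a over genes but not on that same set over probe sets. Ppara, a receptor that activates fat burning, was at 8.03 against 9.26 and 9.96 (-1.58 ± 0.32 SE) and did not pass (adjusted p = 0.054). Nfe2l2, a regulator of antioxidant genes (1.26), and Nr0b2, which encodes the repressor SHP (1.05), rose. Nr1h4, the bile acid receptor FXR (-0.25), and Nr1i2, the xenobiotic receptor PXR (0.05), did not pass.

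**Figure D4:**
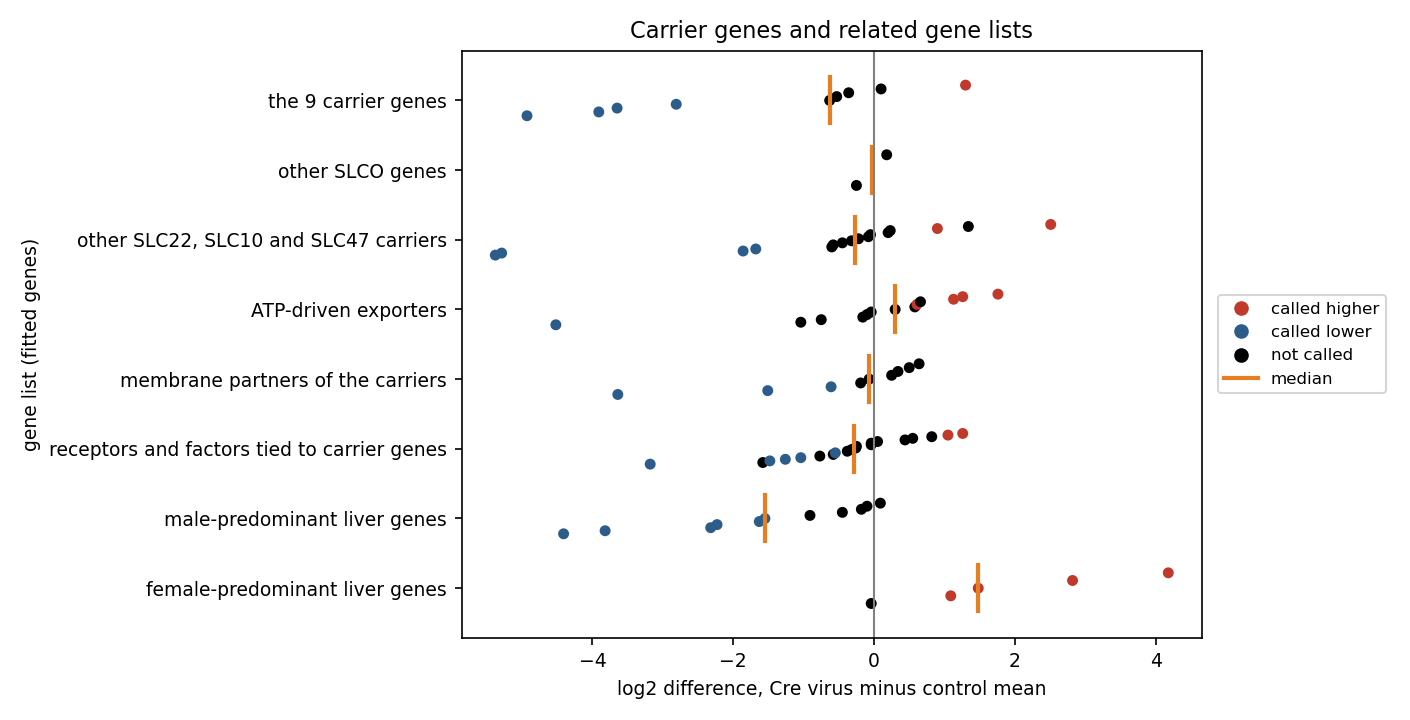
Log2 difference of Cre minus control mean (horizontal axis) for the fitted genes of the 9 carriers and of 7 related gene lists (vertical axis). Points are genes, coloured by limma call, and orange lines are list medians. The carrier median is -0.63, that of the ATP-driven exporters 0.30, that of male-predominant genes -1.55 and that of female-predominant genes 1.48.

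Because Slco1a1 is male-predominant in mouse liver, sex-linked lists were read beside it. The labels do not give the sex of the mice. The Y-linked genes Eif2s3y (8.07, against 7.70 and 7.75), Kdm5d (6.15, against 6.03 and 6.34) and Uty (5.89, against 5.37 and 5.14) were above the filter in all 3 livers, and Xist was below it in all. Of 11 male-predominant genes, all fitted, 6 fell and none rose, beside 5.21% lower and 6.71% higher of all fitted genes. The widest difference was that of Ugt2b38, a glucuronosyltransferase, at 4.08 in the Cre liver, against 8.42 and 8.55 in the control livers (-4.41 ± 0.15 SE, adjusted p = 0.00135). Hsd17b2 (-2.32) and Cyp2d9 (-2.23) fell too. The 5 that did not pass were Elovl3 (-0.91), Nudt7 (-0.45), Cyp4a12a (-0.18), C6 (-0.1) and Gstp1 (0.09). Hsd3b5, a steroid enzyme of male mouse liver, was at 7.39 in the Cre liver, against 11.11 and 11.30 in the control livers (-3.82 ± 0.13 SE, adjusted p = 0.00135). Of 10 female-predominant genes on the array, 5 were below the filter and 4 of the other 5 rose, while Cux2 did not pass (-0.04). The 5 below the filter were not tested. They differed by -0.14 (Cyp2b13), -0.52 (Cyp3a44), 0.06 (Cyp3a16), 0.05 (Sult3a1) and -0.66 (Hao2). Acot3, an acyl-CoA thioesterase, was at 9.13 in the Cre liver, against 5.03 and 4.89 in the control livers (4.18 ± 0.16 SE, adjusted p = 0.00146). Cyp2b9 (1.48) and Fmo2 (1.09) rose too. Acot3 and Fmo2 were each read on a set with the suffix _s_at, which can read more than 1 transcript. Cyp17a1, a steroid hydroxylase, was at 8.66 against 5.79 and 5.89 (2.82 ± 0.15 SE, adjusted p = 0.00292). The filter used the mean of all arrays, which lets a gene enter through its Cre value. These lists were chosen with earlier results of these data known, and their part in the carrier results was not tested.

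Markers of liver cell types were read on the same arrays, where 5.21% of all fitted genes were called lower and 6.71% higher. Of 8 hepatocyte markers, 2 fell (Tat at -1.02 and Serpina1b at -1.42) and none rose, with a summed log2 signal of 17.03 in the Cre liver, against 17.20 and 17.22 in the control livers. Alb (-0.11) and Ttr (-0.10) did not pass. Of 10 macrophage markers 1 rose, Marco, and the summed signal was 11.03 in the Cre liver against 10.10 and 10.70. Of 7 bile duct markers, 3 were below the filter and not tested, Krt7 (0.02), Krt19 (-0.16) and Cftr (0.05). Of the other 4, 2 rose, Sox9 (6.69, against 3.87 and 4.82) and Slc4a2 (7.36, against 6.36 and 6.37). Epcam (0.28) and Muc1 (0.23) did not pass. The summed signal was 8.44 against 7.44 and 7.48, and Slc4a2 and Sox9 were the brightest of the list in the Cre liver. None of the 10 endothelial, 10 stellate cell and fibroblast, 5 fitted lymphocyte and neutrophil, and 3 fitted ileal and kidney markers passed by limma. Their summed signals in the Cre liver were 10.82, 11.72, 7.18 and 7.09, against 10.69 and 10.82, 11.33 and 11.43, 7.25 and 7.22, and 7.27 and 7.51 in the control livers. The Cre liver was above both controls in 9 of 10 stellate cell and fibroblast markers and 8 of 10 macrophage markers. It was above both in 7 of 10 endothelial, 3 of 4 fitted bile duct and 3 of 8 hepatocyte markers. For lymphocyte and neutrophil markers this was 2 of 5, and for ileal and kidney markers 1 of 3. In the same order it was below both in 0, 0, 3, 0, 5, 3 and 2. Over all fitted genes 49.7% were above both and 33.6% below both. The part of these cell types in the carrier results was not tested.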

How the data were processed

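The authors deposited log2 expression values per probe set for 45101 probe sets, for which the submitters' processing notes name Partek 6.5 and the RMA method. No source used here states the log base, and base 2 was taken from the range of 1.586 to 15.048, so each fold rests on it. RMA equalises arrays, which hides a shift common to all genes. Of the probe sets, 64 were array controls, 34945 listed 1 gene, 932 several and 9160 none. Symbols were updated by Entrez ID for 34741 sets through RefSeq (GRCm38.p6), which also gave the promoter windows. The brightest set by mean stood for each gene, and the 12735 genes whose mean reached the 30th percentile of all genes (3.77) entered the fit. Cre virus (1 array) was compared with control virus (2 arrays) with the R 4.3.3 package limma 3.58.1 (eBayes moderation along an intensity trend, 1 residual and 3.18 prior degrees of freedom). The labels call the controls biological replicates. The fit was tested on simulated data. Figures were drawn with matplotlib 3.10.9.

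Every carrier was named, with all its probe sets, then Hnf4a. From each list of carriers, exporters, partners, factors and sex-predominant genes the 4 fitted genes with the widest difference were named, or both where only 2 were fitted, and further members of any list were named after their values were seen. The members and lists were chosen with earlier results of these data known. The planned comparison of protein sequences was not made. The alternatives, given in the closing part, changed the moderation, filter, normalization, probe set per gene, threshold and controls.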

Additional observations from a re-analysis of the deposited data

How the results depend on the processing

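Over all alternatives that gave a test, Slc10a1, Slco1a1, Slco2b1 and Slc22a7 stayed lower and Slco1a4 higher past the threshold, with adjusted p from 8.35e-06 to 0.0347 (limma). Slc22a7 has no set without the suffixes _s_at, _x_at and _a_at, which left 3 carriers lower. With quantile normalization 6 carriers were lower, as Slco1b2 (adjusted p = 0.0441) and Slco2a1 (adjusted p = 0.0442) passed too, and with the mean of probe sets 5, as Slco2a1 passed (adjusted p = 0.0486). Slco2b1 was at -2.64 as that mean and at -2.81 without suffixed sets, and Slco1b2 at -0.61 as that mean without passing (adjusted p = 0.0528). Slc51b passed in none (adjusted p from 0.156 to 0.309), nor did Slc51a (0.738 to 0.808), whose difference was -0.04 without control 2. Of all genes, 855 were higher and 663 lower. No filter gave 446 higher, omitting the suffixed sets 471 higher, quantile normalization 1007 lower, and a threshold of 0.1 gave 1780 higher and 1003 lower. Leaving out a control leaves no residual degrees of freedom, so only folds were counted, an alternative chosen after seeing the data. Then 4 carriers were at least 2-fold lower and 1 higher without either control, with 549 to 581 genes lower and 613 to 695 higher. No paired analysis was possible because the Cre group has 1 mouse. Precision is limited by the number of arrays, and signal near background, as for Slc51a and the Cre values of Slc22a7 and Slco2b1, limits the folds. The same limit holds for Cre values of list genes such as Ugt2b38 (4.08), Abcc6 (4.34) and Pdzk1 (4.51).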
